A study of Arabidopsis thaliana with 4 samples.

Results

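Cytochrome P450 genes were followed across the genome of Arabidopsis thaliana in a list of Pol V peak summits. The members were the protein-coding genes of the RefSeq TAIR10.1 annotation that carry a symbol of the form CYP, family number, subfamily letter and gene number, as in CYP71B15. This rule found 234 genes among 27444 protein-coding genes on the 5 nuclear chromosomes. They fell into 45 families and 69 subfamilies, and 14 families had 1 member. The rule used no value of the list. It left out 22 further protein-coding genes whose product is named as a cytochrome P450 but which carry no such symbol, and 6 pseudogenes that carry one.

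The study was mainly about structures, by cryo-electron microscopy, of complexes of DMS3 and RDM1 with and without a DRD1 peptide. With ChIP-seq it also asked whether DRD1, DMS3 and RDM1, the proteins of the DDR complex, occupy the same places as Pol V. Its 4 anti-FLAG ChIP-seq libraries came from inflorescences of plants with DRD1-Flag, DMS3-Flag or RDM1-Flag and of Col0 without a tag, with 1 library each. Signals of these 4 libraries were not analysed here. The list used here held 11478 summits, called by the authors from published Pol V ChIP-seq reads set against a no-antibody control, as 1 call with 1 whole-number score for each peak. It holds no replicates and no read counts, so the depth is unknown, no spread between samples can be given, and every comparison below is a description without a test. A peak was a single position, and "near" means inside the gene or within 1000 bp of either end.

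Cytochrome P450 enzymes are haem proteins that use oxygen to hydroxylate or otherwise oxidise small molecules. In plants they act in the synthesis and breakdown of hormones, in the polymers of cuticle and cell wall, and in the many defence compounds of specialised metabolism. Numbered families group related proteins and clans group related families, and the CYP71 clan holds many of the enzymes of specialised metabolism. Gene duplication has left many of them side by side in the genome. Pol V is the plant-specific RNA polymerase that makes non-coding transcripts at its target loci. Small RNAs bound to Argonaute proteins pair with these transcripts and bring DNA methylation to the site, in CG, CHG and CHH contexts (H being A, C or T). The DDR complex is needed for Pol V transcription at these loci.

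The sequences under the summits show what kind of DNA Pol V was mapped to at these genes. For each position outside untranslated exons, the summit with the highest score near a P450 gene is shown, with 50 bases on each side of it, in the 5′ to 3′ direction of the gene's own strand. Capitals mark CG dinucleotides, the context in which methylation is copied after replication. A window that touched an untranslated exon was replaced by the next summit in order of score. The coordinates are those of TAIR10.1. The first lies in a coding exon of CYP706A7, at chr4:7318792-7318892 on the minus strand. The second lies in an intron of CYP81D6, at chr2:9885252-9885352 on the plus strand. The third lies upstream of CYP75B1, at chr5:2559997-2560097 on the plus strand. The fourth lies downstream of CYP705A30, at chr3:7342386-7342486 on the plus strand, and is also 239 bp upstream of CYP705A32, so that it counts as upstream where each summit is counted once. The last lies upstream of CYP97B3, at chr4:8633353-8633453 on the minus strand, and is shown as the next highest summit of a gene with a known pathway.
CYP706A7: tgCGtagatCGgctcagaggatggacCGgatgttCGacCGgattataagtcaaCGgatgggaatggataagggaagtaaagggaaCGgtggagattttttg
CYP81D6: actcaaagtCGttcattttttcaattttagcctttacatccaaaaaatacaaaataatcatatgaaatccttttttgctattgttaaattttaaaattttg
CYP75B1: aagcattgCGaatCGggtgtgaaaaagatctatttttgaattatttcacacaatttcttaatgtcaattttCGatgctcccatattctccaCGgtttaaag
CYP705A30: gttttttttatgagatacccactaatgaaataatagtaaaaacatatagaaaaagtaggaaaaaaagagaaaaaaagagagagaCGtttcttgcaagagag
CYP97B3: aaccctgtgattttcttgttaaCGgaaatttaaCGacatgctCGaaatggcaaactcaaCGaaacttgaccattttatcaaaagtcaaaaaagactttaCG

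The coding window of CYP706A7 held 7 CG sites and 48.5% G and C. The intron window of CYP81D6 held 1 CG site and 21.8% G and C, and the window downstream of CYP705A30 held 1 CG site and 27.7% G and C. The windows upstream of CYP75B1 and CYP97B3 lay between these, with 4 CG sites (33.7% G and C) and 5 CG sites (34.7% G and C). The CYP81D6 and CYP705A30 windows had no cytosine in CHG context on either strand, and 20 and 26 cytosines in CHH context. Over all 103 summits near a P450 gene, the 50 bases on each side held on average 6.59 CG, 5.17 CHG and 24.5 CHH cytosines over both strands, against 5.36, 4.30 and 24.7 for all summits of the list. Summits within 1000 bp of any protein-coding gene held 5.70, 4.48 and 24.6. These averages mix positions, and coding summits held more CG cytosines in both sets, 9.61 at P450 genes and 7.97 at any protein-coding gene.

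Of the 234 P450 genes, 82 had a Pol V summit near them, which is 35.0% (95% Wilson interval 29.2% to 41.4%, covering counting error only). Among all protein-coding genes, which include the P450 genes, the share was 27.6%. Gene length bears on the chance of holding a summit, so the share of all protein-coding genes was also standardised to the lengths of the P450 genes, and was then 26.1%. The P450 share was 8.98 percentage points above it, or 82 genes where the standardised share gives 61.0. The median distance of a P450 gene to its nearest summit was 2361 bp, against 3986 bp for all protein-coding genes. No test was run on these differences, and P450 genes that lie side by side and share a summit are not independent of each other.

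Genes that held a summit made up the excess when genes were split into those with a summit inside and those with one only beside. Of the P450 genes with a summit inside, 12 also had one beside them. A summit lay between the ends of 39 P450 genes, 16.7% (95% Wilson interval 12.4% to 22.0%), against 8.03% of all protein-coding genes and 7.34% after length standardisation. It lay in a coding exon of 29 P450 genes (12.4%), against 5.13% of all protein-coding genes and 4.67% after standardisation. It lay in an untranslated exon of 6 P450 genes (2.56%, against 1.69%) and in an intron of 5 (2.14%, against 1.84%). Genes with a summit only beside them were about as common in both sets, 43 P450 genes or 18.4%, against 19.6% of all protein-coding genes and 18.7% after standardisation.

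The downstream share was above that of all protein-coding genes, while the interval of the upstream share covers both of its comparison values. A summit lay within 1000 bp upstream of 28 P450 genes (12.0%, 95% Wilson interval 8.41% to 16.8%), against 14.5% of all protein-coding genes and 13.9% after standardisation. Downstream, 36 P450 genes had one (15.4%, 95% Wilson interval 11.3% to 20.6%), against 10.5% of all protein-coding genes and 9.59% after standardisation. Both flanks held a summit at 9 P450 genes (3.85%, against 2.54%).

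**Figure D1:**
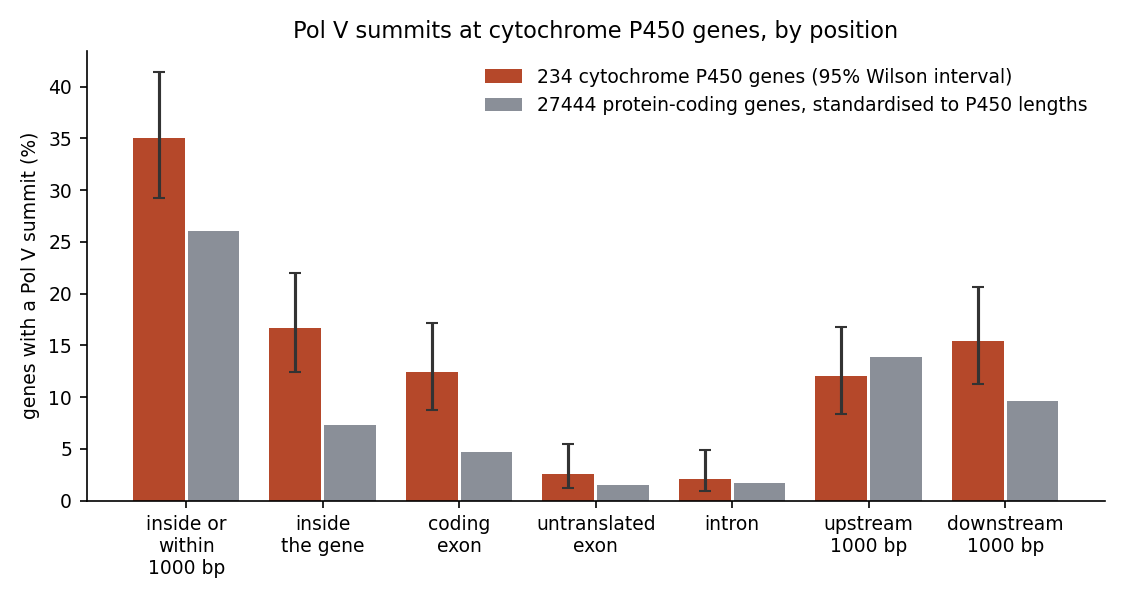
Share of genes with a Pol V summit (vertical axis, percent) by position of the summit. Bars with 95% Wilson intervals are the 234 P450 genes, and grey bars are all protein-coding genes standardised to P450 gene lengths. The P450 bar is higher inside the gene (16.7%, against 7.34%) and downstream (15.4%, against 9.59%). Upstream it is lower (12.0%, against 13.9%), but its interval covers the grey bar.

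In percentage points, the excess was smaller when only summits with higher scores were counted. With only the summits at or above the list's median score of 169, 43 P450 genes (18.4%) had one near, 2.34 percentage points above the length-standardised share. Inside the gene, 12 P450 genes (5.13%) had one, against 3.28% of all protein-coding genes, and 2.35 points above the length-standardised share. Low scores inside genes were not particular to P450 genes. Of the summits inside P450 genes 30.2% were at or above the median, against 35.9% inside any protein-coding gene. The differences with all summits were 8.98 points near and 9.32 points inside, and the threshold lowers the shares of all genes too. P450 genes also had more room around them. The stretches free of protein-coding genes before and after the gene added up to a median of 2417.5 bp, against 1855 bp for all protein-coding genes. Once the share of all protein-coding genes was standardised to length and to this space together, the difference near a summit was 5.03 points.

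Counted per length of DNA, the coding exons of P450 genes held 31 summits in 0.356 Mb, or 87.1 per Mb, against 46.2 per Mb in the coding exons of all protein-coding genes. Of these 31, 24 had scores below the list's median (67.4 per Mb, against 33.4 per Mb) and 7 at or above it (19.7 per Mb, against 12.8 per Mb). P450 genes are compact: coding sequence made up a median of 73.5% of the gene, against 51.8% for all protein-coding genes, at nearly the same median length (2081 bp, against 2078 bp). Untranslated exons and introns of P450 genes had 64.3 and 65.7 summits per Mb, against 36.3 and 31.2 per Mb, from 6 summits in each class. For the flanks, pairs of a gene and a summit were counted, so a summit beside several genes counts for each. The first 1000 bp upstream of P450 genes held 29 pairs, or 123.9 per Mb, against 150.6 per Mb. The first 1000 bp downstream held 38 pairs, or 162.4 per Mb, against 109.3 per Mb. Downstream of P450 genes the density was also higher for pairs at or above the median score (19 pairs or 81.2 per Mb, against 58.8 per Mb).

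Along the gene, summits lay in both parts of the P450 gene body, with 8.55 per 100 genes before its midpoint and 9.83 after it, against 4.29 and 5.25 for all protein-coding genes. The first 200 bp downstream of the gene held 10 summits at P450 genes, or 4.27 per 100 genes, against 1.83. Directly upstream of the gene start, the last 200 bp held 2 summits, or 0.855 per 100 genes, against 1.89.

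**Figure D2:**
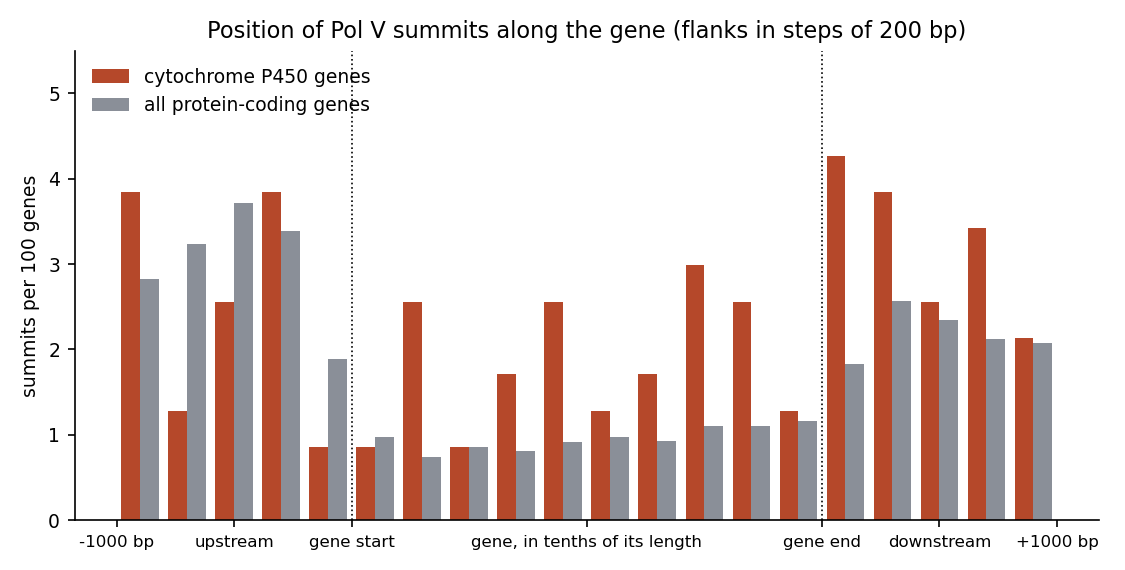
Summits per 100 genes (vertical axis) along the gene, in 10 equal steps of its length, and in steps of 200 bp over 1000 bp upstream and downstream. P450 genes are the left bar of each pair and all protein-coding genes the right bar. The P450 bar is higher over most of the gene and just downstream (4.27, against 1.83), and lower just upstream (0.855, against 1.89), with at most 10 P450 summits behind any bar.

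The 82 genes were tied to 103 summits, since 24 P450 genes had more than 1 summit near (10.3%, against 6.39% of all protein-coding genes) and 7 summits lay near a pair of P450 genes. A single summit lay near 58 P450 genes, 2 lay near 20, and 3 lay near CYP94D1, CYP79C2, CYP71B36 and CYP71B13. The other 152 P450 genes had none. Of the 103 summits, 43 lay inside a P450 gene (31 in coding exons, 6 in untranslated exons, 6 in introns), 27 upstream and 33 downstream. Of the 60 beside a P450 gene, 51 lay outside every annotated gene, 5 in another protein-coding gene, 3 in a non-coding RNA gene and 1 in a pseudogene. In all, 27 of the 103 also lay near a protein-coding gene that is no P450, so a summit near a P450 gene was not always nearest to that gene alone.

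Scores of the 103 summits ran between 35 and 1161, with a median of 149, against 176.0 for summits near any protein-coding gene and 169 for the list. At or above the list's median were 46 of them, 44.7%. Inside P450 genes the middle of the scores, between the quartiles, ran between 59.5 and 179.0, against 58.0 and 243.0 inside any protein-coding gene. In coding exons the median was 90, against 81.0. Upstream summits had the highest median of the 5 positions, 268.0, and downstream summits had 159.0. Beside P450 genes the median was 185.5, against 219.0 beside any protein-coding gene.

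**Figure D3:**
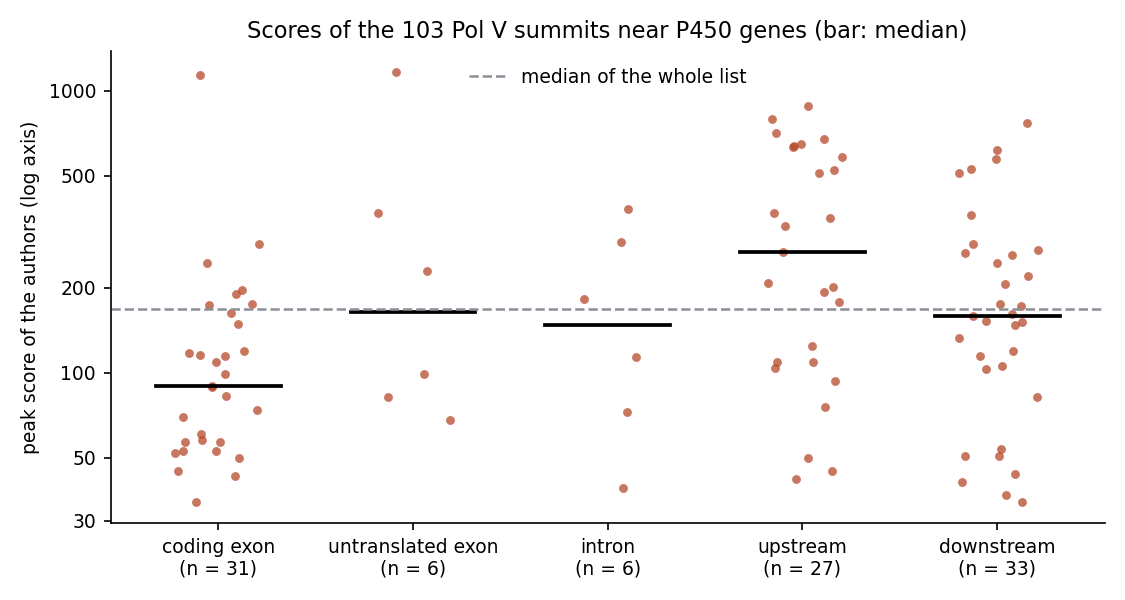
Score given by the authors to each of the 103 summits near P450 genes (vertical axis, log scale), by position. Points are summits, black bars are medians, and the dashed line is the list's median of 169. Coding summits cluster low, with a median of 90, and upstream summits have a median of 268.0, while 1 coding and 1 untranslated summit exceed 1000.

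The highest score near a P450 gene, 1161, belonged to CYP714A2 (AT5G24900, minus strand, chr5:8563800-8566812), which takes part in the deactivation of gibberellins. This summit lay in an untranslated exon and ranked 65 in the list. A second summit in a coding exon of the same gene scored 176. CYP706A7 (AT4G12330, minus strand, chr4:7317508-7319774) followed with 1131, at rank 83, in a coding exon and at 41.1% of the gene's length from its start. No other summit near a P450 gene was among the 100 highest of the list.

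Below these, summits beside genes made up the high scores. CYP75B1 (TT7, AT5G07990), the flavonoid 3′-hydroxylase of the tannin and anthocyanin pathway, had a summit of 880 at 281 bp upstream. CYP71B19 had one of 793 at 928 bp upstream and one of 44 at 427 bp downstream. CYP72A13 had one of 768 at 69 bp downstream. CYP97B3, of the family that hydroxylates carotenoids, had one of 707 at 285 bp upstream, and CYP96A9 one of 673 at 192 bp upstream. A summit of 646 lay 733 bp downstream of CYP705A30 and 239 bp upstream of CYP705A32, and one of 638 lay 200 bp downstream of CYP71A25 and 877 bp upstream of CYP71A24. Each of these lay outside every annotated gene, and the last pair lay between neighbouring P450 genes.

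The families differed widely. In the CYP71 clan, 59 of 148 genes had a summit near (39.9%, 95% Wilson interval 32.3% to 47.9%), against a length-standardised 25.8% of all protein-coding genes. In the other clans, 23 of 86 genes had one near (26.7%, 18.5% to 36.9%), against a standardised 26.5%, so their share was at that of all protein-coding genes. Inside the gene, 28 genes of the CYP71 clan had a summit (18.9%, against a standardised 7.19%) and 11 of the other clans (12.8%, against 7.62%). The difference of 13.1 percentage points near a summit between the CYP71 clan and the others was 5.15 points with summits at or above the median score, and the intervals of the clans overlap. Outside the CYP71 clan, a summit was near 9 of 26 genes of the CYP85 clan, 7 of 31 of the CYP86 clan and 5 of 19 of the CYP72 clan. Few genes of these clans had a summit inside. The CYP72 clan had 4 of 19 (21.1%, against a standardised 7.61%) and the CYP85 clan 4 of 26 (15.4%, against 8.33%). The CYP86 clan had 2 of 31 (6.45%, against 6.94%). The CYP72 and CYP85 shares inside the gene were thus also above the standardised ones, but on 4 genes each. No interval was computed for these inside shares, and the differences between clans were not tested. Summits within 100 kb had a median of 88.4 per Mb around the CYP71 clan, against 78.3 per Mb around the other clans pooled. Among these, the median was 90.9 per Mb around the CYP85 clan, 75.8 around the CYP86 clan and 70.7 around the CYP72 clan. The part of this local density in the difference between clans was not tested.

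Of the 15 families with at least 5 genes, CYP706 had the highest share, with a summit near 5 of 7 genes and inside 3. CYP89 followed with 4 of 6, and all 4 held a summit inside. CYP79, whose enzymes turn amino acids into aldoximes, had 4 of 7, with 3 inside. CYP702 had 3 of 6 with 1 inside, and CYP71, the largest family, 22 of 49 with 8 inside. Summits were denser around CYP706, CYP702 and CYP71 genes, at medians of 166.7, 151.5 and 111.1 per Mb within 100 kb, against 80.8 per Mb for all P450 genes. The medians were 85.9 per Mb around CYP79 and 78.3 per Mb around CYP89 genes. At the other end stood CYP72 with 1 of 9, CYP94 with 1 of 6, CYP81 with 3 of 17 and CYP77 with 1 of 5. Around CYP81 genes the local density was low, at a median of 30.3 per Mb. With so few genes the intervals are wide: that of CYP706 runs between 35.9% and 91.8%, and that of CYP72 between 1.99% and 43.5%.

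Between these, CYP705 had a summit near 9 of 24 genes (4 inside), CYP96 near 3 of 12 (none inside), CYP86 near 3 of 10 (2 inside), CYP76 near 2 of 8 (1 inside), CYP78 near 2 of 6 (1 inside) and CYP82 near 2 of 5 (1 inside). Within CYP71, the A subfamily had 9 of 16 and the B subfamily 13 of 33. The 57 genes of smaller families had 17 with a summit near and 9 with one inside, against 27.6% and 8.03% of all protein-coding genes. In 15 families, which hold 26 genes, no gene had a summit near. They are CYP51, CYP73, CYP84, CYP87, CYP88, CYP93, CYP98, CYP703, CYP704, CYP709, CYP710, CYP711, CYP721, CYP722 and CYP724. Their sizes are so small that 0 of 4 in CYP710 allows a share of up to 49.0% by the Wilson interval.

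**Figure D4:**
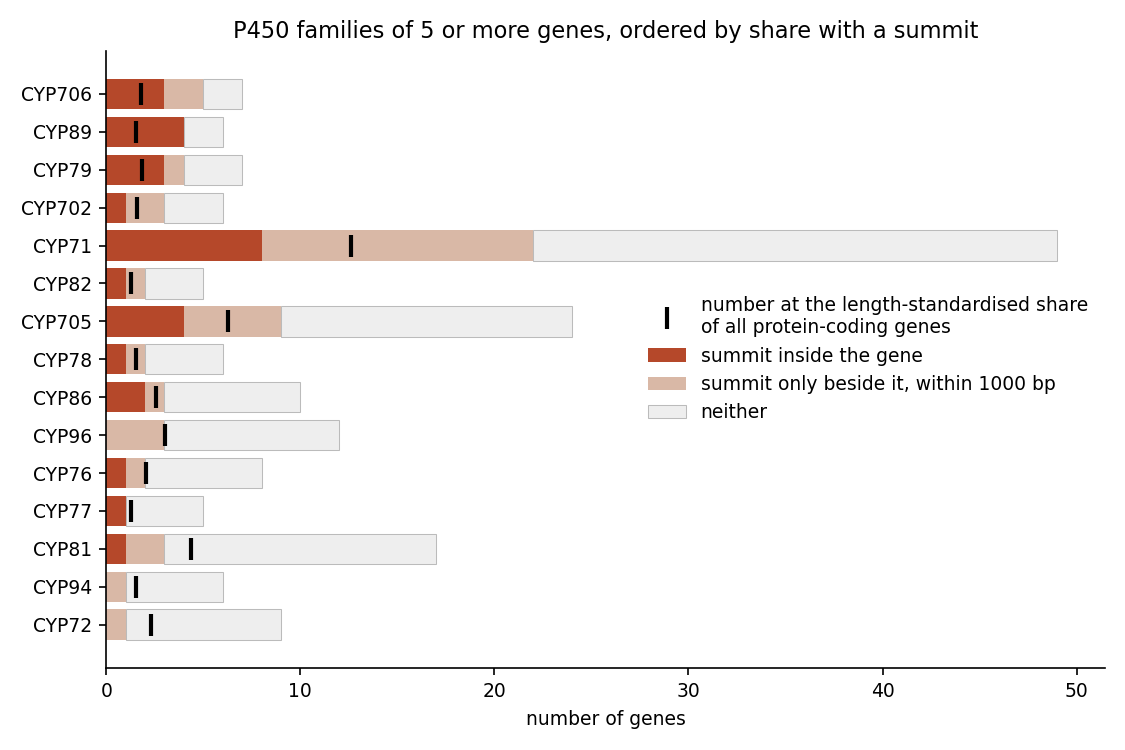
Number of genes (horizontal axis) in each P450 family of at least 5 genes, ordered by share with a summit. Dark parts are genes with a summit inside, light parts genes with one only beside them, pale parts neither, and black ticks the number that the length-standardised share of all protein-coding genes gives. CYP706 (5 of 7), CYP89 (4 of 6) and CYP71 (22 of 49) reach past their tick, while CYP72 (1 of 9) and CYP81 (3 of 17) stay short of it.

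The 39 genes with a summit inside spread over many families. In coding exons the scores were below 60 at CYP77B1 (53), CYP71B7 (35), CYP89A6 (53), CYP76C1 (57), CYP705A20 (50), CYP706A5 (43), CYP79B2 (52), CYP78A7 (58) and CYP71A16 (45). They were between 60 and 120 at CYP89A2 (70), CYP89A7 (89), CYP89A9 (83), CYP734A1 (118), CYP86A8 (90), CYP705A32 (74), CYP71B32 (116), CYP712A2 (61), CYP71B13 (99) and CYP716A2 (109). CYP79C2 held 2 coding summits, of 120 and 115, and CYP705A9 also held 2, of 149 and 57. Higher scores were found at CYP71A13 (174), CYP86A2 (163), CYP735A1 (197), CYP707A3 (191), CYP715A1 (246) and CYP79A2 (286), beside CYP714A2 and CYP706A7 above. In untranslated exons lay those of CYP708A3 (369), CYP82F1 (229), CYP71B4 (68), CYP706A6 (82) and CYP705A4 (99). In introns lay those of CYP81D6 (381), CYP71A20 (73), CYP702A6 (182), CYP71A14 (39) and CYP74B2 (114 and 290). The summit in CYP71A13 also lies within AT2G30766, a protein-coding gene that overlaps it, and is the only one of the 43 inside P450 genes that lies in another annotated gene.

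The other genes with at least 2 summits near them showed several layouts. Summits stood on both sides of CYP76C5 (42 upstream and 272 downstream), CYP705A13 (209 and 220), CYP81D1 (581 and 574), CYP706A1 (193 and 51) and CYP94D1 (76 upstream, 152 and 35 downstream). CYP71B13 had all 3 positions, with 201 upstream, 99 in the coding exon and 246 downstream. CYP81D11 had both of its summits upstream (268 and 50). CYP71B37 had one of 525 upstream and one of 331 downstream, and CYP71B36 had that of 331 upstream, with 159 and 54 downstream. A coding or intronic summit together with a downstream one was found at CYP81D6 (266 downstream), CYP702A6 (261), CYP89A6 (526), CYP89A2 (41), CYP78A7 (106), CYP79C2 (103) and CYP71A16 (176). At CYP89A9, which acts in chlorophyll breakdown, a coding summit of 83 went with one of 631 at 397 bp upstream.

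Pathway lists of well-known P450 genes covered 83 of the 234. A further 3 listed symbols, CYP74A, CYP74A1 and CYP51A1, match no member, so allene oxide synthase (CYP74A), which acts early in jasmonate synthesis, is not counted. A summit was near 26 of these (31.3%, 95% Wilson interval 22.4% to 41.9%) and near 56 of the 151 on no list (37.1%, 29.8% to 45.0%), against the 27.6% of all protein-coding genes. The intervals overlap widely, and no list below holds more than 12 genes.

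Among hormone genes, 4 of 9 in the brassinosteroid list had a summit near. BAS1 (CYP734A1), which inactivates brassinosteroids, held one of 118 in a coding exon at 49.1% of its length. The synthesis genes DWF4 (CYP90B1), CYP90D1 and CYP85A1 had one beside them, of 133 at 195 bp downstream, 618 at 212 bp downstream and 109 at 492 bp upstream. The DWF4 summit lies in a non-coding RNA gene, AT3G08135. CYP85A2, which makes brassinolide, missed the limit with a summit at 1471 bp. In the gibberellin list it was 2 of 5: CYP714A2, and the ent-kaurene oxidase GA3 (CYP701A3) with a summit of 369 at 406 bp upstream. CYP714A1, next to CYP714A2, lay 1591 bp from the same summit of 1161.

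Single genes had a summit in the next hormone lists. Of the 4 abscisic acid 8′-hydroxylases, CYP707A3 held one of 191 in a coding exon, and CYP707A1 had its nearest at 3216 bp. Of the cytokinin trans-hydroxylases, CYP735A1 held one of 197 in a coding exon, and CYP735A2 had its nearest at 1318 bp. In the jasmonate list of 4, the gene with summits was CYP74B2, the hydroperoxide lyase, which uses a substrate of the jasmonate route but does not make jasmonate. CYP94B3, which oxidises the active jasmonate conjugate, had its nearest at 1572 bp. MAX1 (CYP711A1), of strigolactone synthesis, had none nearer than 10956 bp.

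No gene of the sterol list had a summit near. None of its 5 genes, the 14-demethylase CYP51G1 and the C22-desaturases of the CYP710A subfamily, came nearer than 3356 bp, the distance at CYP710A4. Of the 3 carotenoid hydroxylase genes CYP97B3 had one, and CYP97C1 had its nearest at 3671 bp. The phenylpropanoid list had 1 of 7, the flavonoid gene CYP75B1. Its lignin genes had none, and CYP73A5, the cinnamate 4-hydroxylase at the entry of the pathway, had its nearest at 7854 bp.

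For defence compounds, 4 of 11 glucosinolate genes had a summit near. CYP79A2, which starts from phenylalanine, held one of 286 in a coding exon at 89.7% of its length. CYP79B2, which turns tryptophan into indole-3-acetaldoxime, held one of 52 in a coding exon at 8.28%, and its close relative CYP79B3 had its nearest, of 36, at 1426 bp. CYP79F1, of methionine-derived glucosinolates, had one of 37 at 709 bp downstream, which lies inside the neighbouring gene MC8. CYP83A1, the next enzyme of that route, had one of 120 at 852 bp downstream, inside AT4G13760. All 4 CYP81F genes, which modify indole glucosinolates, had none.

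In the camalexin list, 2 of 5 had a summit. CYP71A13 and CYP71A12, neighbours that make indole-3-acetonitrile, had a coding summit of 174 and an upstream summit of 45 at 373 bp. Around the CYP71A12 summit, 69.5% of 50-base stretches occur once in the genome, so reads from there map less often to a single place. PAD3 (CYP71B15), the last step, missed the limit at 1185 bp. The terpenoid list had 4 of 8, with scores between 45 and 207. CYP76C1, a linalool oxidase, held one of 57 in a coding exon. CYP71A16, the marneral oxidase, had a coding one of 45 and a downstream one of 176. CYP705A1, which cleaves arabidiol, had one of 207 at 690 bp downstream, and CYP82G1, of homoterpene synthesis, one of 82 at 370 bp downstream, inside RALFL26. CYP76C2 had its nearest, the coding summit of CYP76C1, at 1073 bp.

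Of the 12 genes of cutin, suberin, wax and pollen wall, 3 had a summit near. The fatty acid omega-hydroxylases CYP86A2 and CYP86A8 held one in a coding exon, of 163 at 52.1% of the length and of 90 at 45.7%. CYP86B1, of suberin, had one of 178 at 833 bp upstream, and CYP86A1 had its nearest, of 1055, at 2365 bp. In the CYP78A list of organ growth, 2 of 6 had one. KLUH (CYP78A5) had a summit of 355 at 755 bp upstream, and CYP78A7 a coding one of 58 and one of 106 at 15 bp downstream. CYP78A8 had its nearest at 5795 bp. CYP82C4, of iron-deficiency coumarins, had its nearest at 9244 bp.

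The share was not higher among P450 genes that lie beside another one. Of 135 P450 genes with another within 10 kb, 45 had a summit near (33.3%, 95% Wilson interval 25.9% to 41.6%), against 37 of 99 without such a neighbour (37.4%, 28.5% to 47.2%). The difference was -4.04 percentage points, and -0.07 with summits counted up to 2000 bp. These values pool the clans, and the CYP71 clan supplied 107 of the 135 genes with a neighbour and 41 of the 99 without. Within the CYP71 clan the shares were 36.4% with a neighbour and 48.8% without. In the other clans they were 21.4% (6 of 28) and 29.3% (17 of 58). The 95% Wilson intervals overlap in both cases. Chains of at least 3 P450 genes, each within 10 kb of the next, formed 18 arrays with 87 genes, of which 28 had a summit near (32.2%, against 27.6% of all protein-coding genes), in 15 arrays.

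Arrays with and without summits stood in contrast. At CYP89A2 to CYP89A5, 3 of 4 genes held a coding summit of low score (70, 89 and 53) and a summit of 526 lay after CYP89A6. At CYP706A4 to CYP706A7, 3 of 4 genes held one, with 1131 in CYP706A7 at one end, against 43 to 125 over CYP706A5 and CYP706A6. Of the 4 genes of CYP705A28 to CYP705A33, 3 shared 2 summits between them: that of 646 and one of 74 in the coding exon of CYP705A32, which is also 841 bp upstream of CYP705A33. At CYP71B25 to CYP71B37, 5 summits lay near 3 of 7 genes, and one of 331 lay between CYP71B36 and CYP71B37. The 8 CYP72A genes of another array had a single summit, that of CYP72A13. CYP82C4 to CYP82C2, CYP81F3 to CYP81F1 and the 6 genes of CYP81H1 to CYP81D8, all on chromosome 4, had none.

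**Figure D5:**
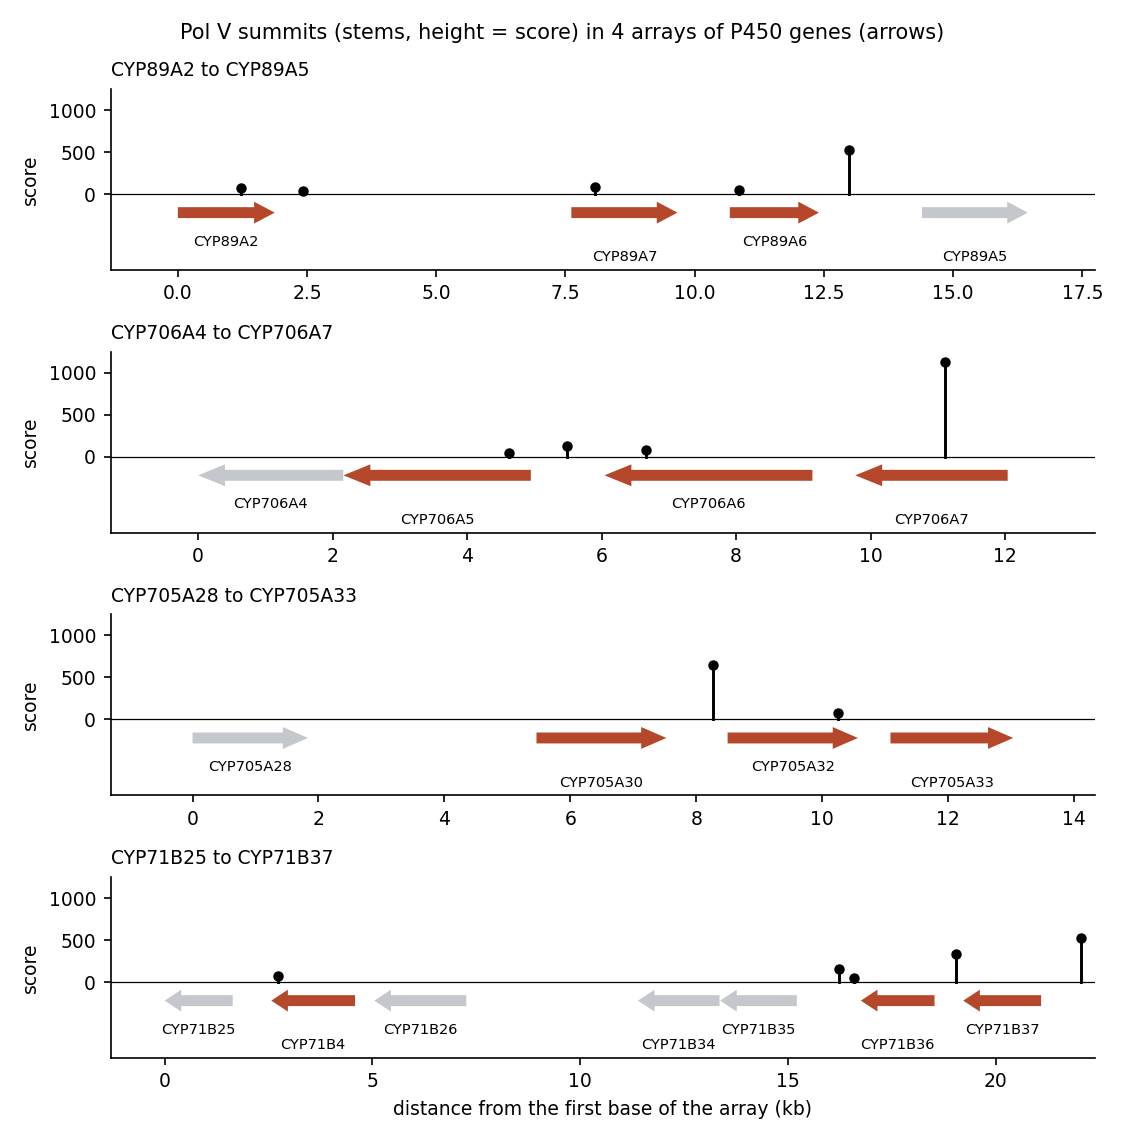
Summits (stems, height is the authors' score) along 4 arrays of P450 genes (arrows in the direction of transcription), against distance in kb. Dark genes have a summit within 1000 bp and grey ones have none, and genes that are no P450 are not drawn. Scores are below 100 in the CYP89A genes and reach 1131 in CYP706A7.

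Pairs of P450 genes also shared a summit at CYP705A20 and CYP705A21 (50), CYP71B23 and CYP71B3 (509), CYP71A25 and CYP71A24 (638), and CYP706A5 and CYP706A6 (125). Near the 1000 bp limit, CYP71B8 (957 bp) and CYP71B12 (993 bp) were just inside, and CYP702A8 (1002 bp) and CYP71B35 (1011 bp) just outside. A further 29 P450 genes had their nearest summit between 1000 and 2000 bp away.

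By chromosome, the share of P450 genes with a summit near was closest to that of all protein-coding genes on chromosomes 2 (11 of 36 or 30.6%, against 31.6%) and 1 (13 of 46 or 28.3%, against 26.4%). It was 32.8% on chromosome 3 (21 of 64, against 26.2%), 37.8% on chromosome 4 (17 of 45, against 28.9%) and 46.5% on chromosome 5 (20 of 43, against 26.6%). P450 genes with a summit lay where summits were dense, at a median of 106.1 per Mb within 100 kb, against 70.7 per Mb for those without one. This also held for all protein-coding genes (111.1 per Mb, against 65.7 per Mb). Around summits in P450 coding exons, the 250 bp on each side had on average 43.1% G and C, against 40.7% at coding summits of any gene, and beside P450 genes it was 30.4% in both sets. Around P450 summits, 98.1% of 50-base stretches occur once in the genome, against 98% near any protein-coding gene. Only reads with a single place in the genome were kept, so a high value around called summits follows from the processing. Over the gene with 1000 bp on each side, under 90% of 50-base stretches were unique at 8 of the 234 P450 genes. Of these, 2 had a summit near, CYP71A12 and CYP706A1. Leaving all 8 out gave a share near a summit of 35.4%.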

How the data were processed

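The deposited list gives, for each peak, a position and 1 whole-number score. The authors took published reads of a Pol V antibody ChIP and of its no-antibody control, aligned them with Bowtie (1.0.0 per the labels), allowed 2 mismatches, kept reads with a single place in the genome, removed duplicates with SAMtools (0.1.19), and used MACS2 for the peak call (q-value 0.05, enrichment over 2-fold). What the score measures is not given in the sources used here, and it was used only for ranks, medians and 1 threshold. Mapping to single places loses summits in repeated sequence, and a summit keeps no peak width. All 11478 summits entered (1 blank record left out, 0 other columns of samples unused).

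Positions were set against RefSeq genes of TAIR10.1 with Python 3.11.15, NumPy 2.4.6 and SciPy 1.17.1. A summit took the first class that fitted of coding exon, untranslated exon, intron, upstream and downstream. The share of all protein-coding genes was weighted to the members' lengths over 20 classes of equal gene number, a step tested on simulated data. A gene with several CYP symbols counted once. Described by name were members with a summit inside, the 10 with the highest scores, those with at least 2 summits, pathway genes with a summit, for each of the 15 pathway lists the nearest gene without one, and 2 genes on each side of the 1000 bp limit. The members and lists were chosen with earlier results of these data known. Alternatives changed the distance, score threshold, length classes, neighbour distance and membership. One, standardising to coding share, was added after the data were seen.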

Additional observations from a re-analysis of the deposited data

How the results depend on the processing

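Over 14 settings, 44 values were recomputed, and 38 stayed within their counting interval or, for the median score, within 1.5 times. None changed sign. The 6 that moved came from the distance and the score. The share of P450 genes with a summit near was 27.4% at 500 bp and 47.4% at 2000 bp, and 18.4% with summits at or above the list's median score, where all protein-coding genes had 16.9%. With that score, the share with a summit inside was 5.13%, against 3.28% of all protein-coding genes, and the differences from the length-standardised shares were 2.34 points near and 2.35 points inside. Fewer summits and other distances are part of these settings by construction. Otherwise the difference near a summit lay between 5.03 points (length and space to neighbours) and 12.3 points (2000 bp). The difference inside lay between 6.72 points, with coding share and length, a setting chosen after seeing the data, and 9.43 points, with P450 genes added by product name. The CYP71 clan stood between 5.15 and 13.6 points above the other clans, genes with a P450 neighbour between -6.33 and -0.07 points from those without, and the median score was between 132 and 163. No paired analysis was possible because the values come from 1 list without replicates. The depth behind the list is unknown, so a gene without a summit may lie under the limit of detection of that call.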

Other observations

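Of the 22 protein-coding genes with a P450 product but no symbol of that form, 7 had a summit near (31.8%, against 27.6% of all protein-coding genes), among them AT2G12190 with 3. Of the 6 pseudogenes with a symbol, 3 had one: CYP51G2 had 3 summits near, CYP96A7 had 1 of score 58 at 105 bp, and CYP71B18 had 1 of score 44 at 735 bp. The UGT genes, another large family of specialised metabolism that adds sugars, were looked at after the P450 values had been seen. A summit lay inside 39 of the 234 P450 genes (16.7%), against 4 of 64 UGT genes (6.25%), and near 82 P450 genes (35.0%), against 18 UGT genes (28.1%). Downstream the shares were 15.4%, against 4.69% in UGT genes, and upstream 12.0%, against 18.8% in UGT genes. These differences were not tested.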
